A study of Mus musculus with 8 samples.

Results

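The NRF2 antioxidant response genes described here are 10 loci, Nfe2l2, Keap1, Sqstm1, Slc7a11, Gclc, Gclm, Txnrd1, Srxn1, Nqo1 and Hmox1, taken by gene symbol from a table of 23735 loci. All 10 passed the filter on low values (at least 1 RPKM in at least 2 libraries), as did 11272 loci in all. RPKM counts reads per kilobase of a transcript relative to all mapped reads in a library. Expression was measured by RNA sequencing in peritoneal macrophages of 8-week-old C57BL/6J mice. The control mice carried floxed MED1 alleles (MED1 fl/fl, labelled WT), and the others lacked MED1 in macrophages (labelled MED1-/- or MED1ΔMac, called KO here). MED1 is a subunit of Mediator, the complex that links transcription factors to RNA polymerase II. Cells of each genotype stayed untreated or received lipopolysaccharide (LPS, the bacterial outer membrane component sensed by TLR4) at 50 ng/mL for 6 h. This gave 4 groups, with 2 libraries each that the labels letter A and B. The sources used here name neither the Cre driver nor the deleted exons, and do not say whether libraries came from separate or pooled animals, so p-values measure the spread between these libraries, which may be technical.

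NRF2, the product of Nfe2l2, is a basic leucine zipper transcription factor. Without stress, the adaptor KEAP1 brings it to the CUL3 ubiquitin ligase and it is degraded, so its activity is set mainly at the protein and less at the mRNA. Oxidants and electrophiles modify cysteines of KEAP1, NRF2 then accumulates, pairs with a small MAF protein and binds antioxidant response elements in its target genes. The targets supply cystine and glutathione, reduce thioredoxin and peroxiredoxins, and break down quinones and heme. In macrophages, LPS signalling raises both oxidant production and metabolites such as itaconate that modify KEAP1.

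RefSeq promoter windows (GRCm38.p6, 250 bases before to 50 after the start) were found for 8 of the 10 genes, Hmox1 and Gclc being the others. Windows were searched on both strands for the antioxidant response element core TGACNNNGC, for the AP-1 element TGAGTCA, and for TGAGNNNGC, a form of the core added after the windows had been seen, which the AP-1 element can overlap. TGACNNNGC lay in 4 of the 8 genes against 14% of 27025 genes, TGAGNNNGC in 2 against 19.8%, and TGAGTCA in 1 against 5.95%. One or the other form of the core lay in 5 of 8 genes against 30.8% of all. The 250 bases before the start of those 5 genes are shown because 3 of them (Slc7a11, Txnrd1 and Srxn1) are among the 4 genes called higher with LPS below. Capitals mark matches, sequences run 5′ to 3′ on the gene's strand, and a match on the opposite strand reads as its complement in reverse. The intervals are chr3:122245307-122245556 (plus strand) for Gclm, chr2:75704664-75704913 (minus) for Nfe2l2, chr3:50443614-50443863 (minus) for Slc7a11, chr2:152105274-152105523 (plus) for Srxn1, and chr10:82858956-82859205 (plus) for Txnrd1.
Nfe2l2: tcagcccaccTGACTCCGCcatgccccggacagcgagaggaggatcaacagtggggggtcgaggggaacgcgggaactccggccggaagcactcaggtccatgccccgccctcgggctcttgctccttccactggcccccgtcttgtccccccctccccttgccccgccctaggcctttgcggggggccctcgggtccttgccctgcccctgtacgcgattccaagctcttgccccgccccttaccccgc
Slc7a11: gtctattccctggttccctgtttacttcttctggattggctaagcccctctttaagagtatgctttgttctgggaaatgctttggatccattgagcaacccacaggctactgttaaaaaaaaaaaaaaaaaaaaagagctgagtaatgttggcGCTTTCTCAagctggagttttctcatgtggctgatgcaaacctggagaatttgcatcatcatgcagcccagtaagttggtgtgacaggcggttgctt
Gclm: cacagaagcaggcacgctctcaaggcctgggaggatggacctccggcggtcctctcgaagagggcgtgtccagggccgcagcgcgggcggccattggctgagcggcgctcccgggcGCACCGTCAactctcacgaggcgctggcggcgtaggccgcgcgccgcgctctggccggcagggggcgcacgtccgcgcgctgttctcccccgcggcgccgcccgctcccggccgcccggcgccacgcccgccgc
Txnrd1: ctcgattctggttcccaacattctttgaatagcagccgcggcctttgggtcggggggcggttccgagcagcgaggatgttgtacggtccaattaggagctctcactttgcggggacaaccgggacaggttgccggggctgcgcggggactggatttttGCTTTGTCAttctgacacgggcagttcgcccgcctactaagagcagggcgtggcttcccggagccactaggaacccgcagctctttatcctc
Srxn1: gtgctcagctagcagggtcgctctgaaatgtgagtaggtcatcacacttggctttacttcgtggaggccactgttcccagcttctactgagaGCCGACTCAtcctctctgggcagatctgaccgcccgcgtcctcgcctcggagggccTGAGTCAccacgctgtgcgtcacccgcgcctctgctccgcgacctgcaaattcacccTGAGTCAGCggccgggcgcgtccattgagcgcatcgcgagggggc
The matches begin 240 bases before the start in Nfe2l2, 97 before it in Slc7a11, 134 before it in Gclm and 92 before it in Txnrd1, where 1 of 3 listed starts has one. Srxn1 held TGAGNNNGC at 158 and 45 bases before the start and TGAGTCA at 102 and 45, so that the match at 45, TGAGTCAGC, is both. It held a further TGACNNNGC at 29 bases after the start, outside the stretch shown. A match describes these letters and is not evidence of binding.

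Estimated depth was 6.89 to 14.2 M mapped reads a library, and Keap1, the lowest of the 10 genes, had at least 115 reads per kilobase in each. Med1 itself read 21.7 and 24.8 RPKM (library A, then library B, as in all pairs of values below) in untreated WT, 17.6 and 23.4 in untreated KO, 24.7 and 21.6 in LPS-treated WT, and 24.4 and 20.3 in LPS-treated KO. It was not called lower in KO (log2 difference over treatments -0.12, SE 0.15, limma adjusted p = 0.999), so the RNA does not check the genotype labels, and WT and KO below mean the libraries so labelled. Macrophage markers (6 of 7 in the table, none of these 6 at 0) summed to 2810 to 3046 RPKM untreated and 1609 to 2247 with LPS. Cd68 (835 to 1452 RPKM untreated and 222 to 748 with LPS) and Mertk were lower with LPS without overlap. The ranges of Emr1 (277 to 709 and 424 to 454) and Itgam (567 to 680 and 400 to 703) overlapped. Those of Csf1r and Fcgr1 also overlapped. B cell markers (4 of 4, none at 0) summed to 378 to 590 RPKM in the WT libraries, 535 and 1586 in KO untreated A and B, and 918 to 1332 in KO with LPS. Mast cell markers (4 of 4) summed to 0.197 to 23.5 RPKM in the A libraries and 65.1 to 162 in the B libraries, with Mcpt4 at 0 in KO untreated A and KO LPS A and Tpsb2 at 0 in KO untreated A. Erythroid markers (4 of 4) summed to 68.7 RPKM in WT untreated B and at most 0.21 elsewhere, where the globin genes were at 0. In these bulk libraries, fewer cells of a type and less RNA per cell cannot be told apart.

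With LPS averaged over genotypes, the cystine importer, thioredoxin reductase, sulfiredoxin and the KEAP1-binding autophagy receptor passed the test as higher, while Nfe2l2, Keap1 and the classical target Nqo1 did not pass. Averaged over genotypes, 4 of the 10 genes rose and 0 fell: Slc7a11 by 3.12, Txnrd1 by 1.59, Sqstm1 by 1.32 and Srxn1 by 1.28 on the log2(RPKM + 1) scale. Of all 11272 loci tested, 8.46% rose and 21.8% fell in that comparison. The genes' median change was 0.85, with 9 of 10 above zero, against 28.9% of all loci. The median of all loci was -0.26. Within KO the same 4 rose, where 3.31% of all loci rose and 3.31% fell, and 8 of 10 had an unadjusted p under 0.05 against 29.2% of all loci. Within WT 0 of 10 was called, where 3.17% rose and 3.14% fell, and 2 of 10 had an unadjusted p under 0.05 against 29.3%. The genes' median change was 1.54 in KO and 0.36 in WT, with -0.28 and -0.25 over all loci. Leaving out WT untreated A gave a WT median of -0.16, leaving out WT untreated B gave 0.78, and the KO median was 1.02 without KO untreated B. The averaged median was 0.53 without WT untreated A.

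**Figure D1:**
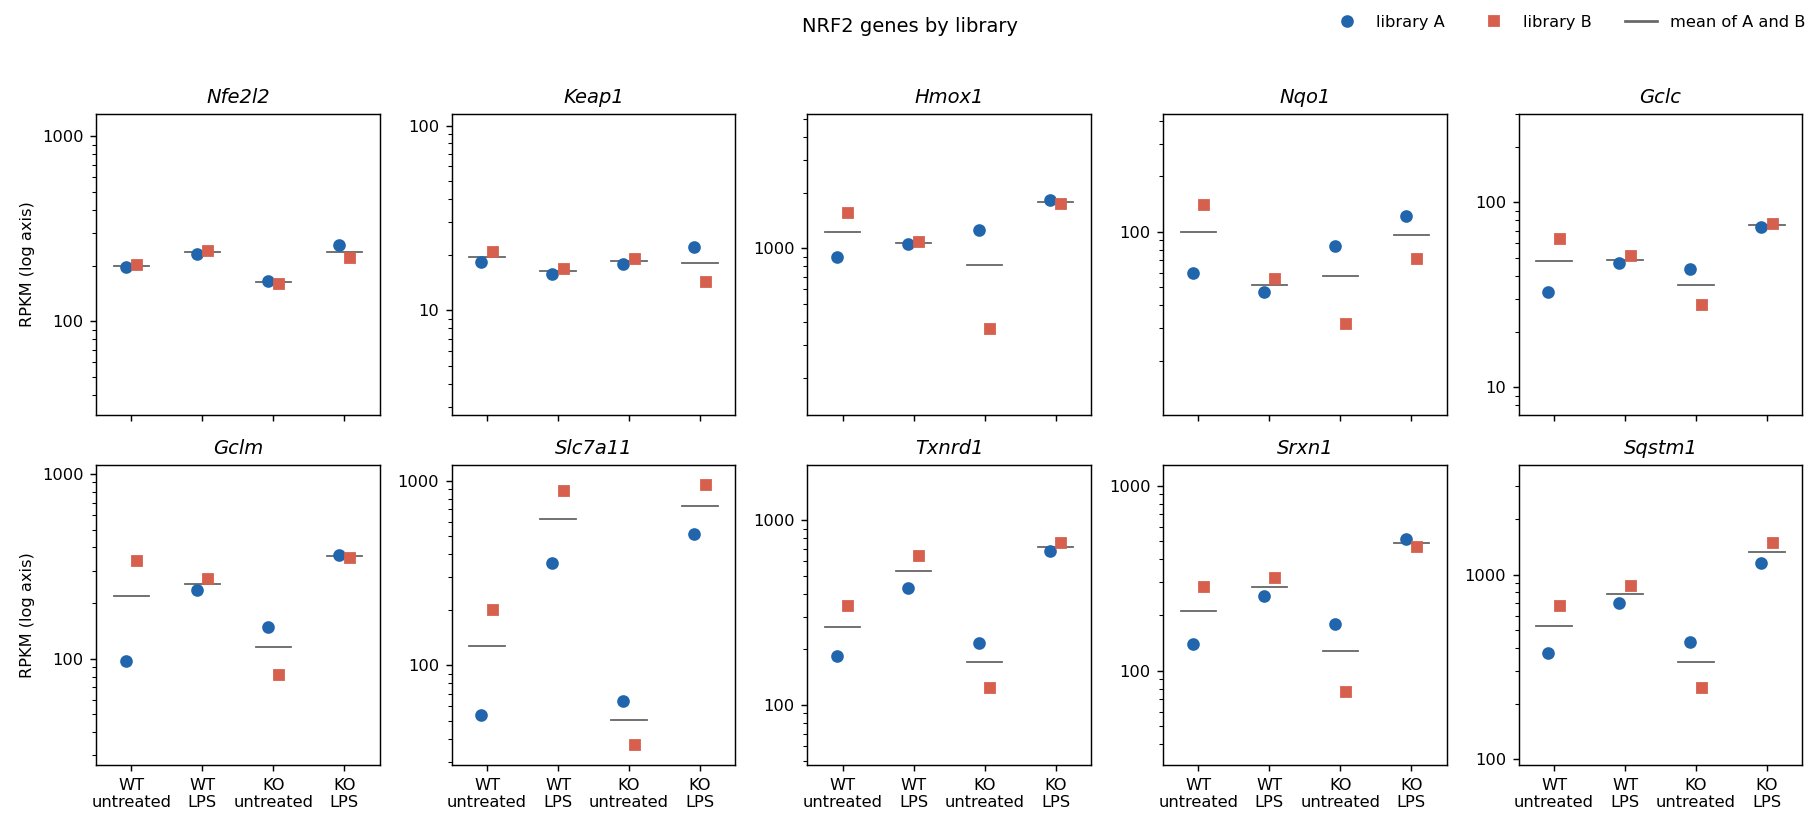
RPKM of each of the 10 genes on a log axis in each of the 8 libraries, 1 panel a gene, with letters A and B as separate symbols, the 4 groups along the horizontal axis and a short grey bar at the group mean. Slc7a11 spans 37.1 to 942 RPKM, whereas Keap1 stays between 14.2 and 22.1, and the untreated libraries lie far apart for the 8 target genes.

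Among the regulators, Nfe2l2 (locus XLOC_012158, mm9 chromosome 2, 75513570 to 75542698, minus strand) read 196 and 202 RPKM in untreated WT, 166 and 159 in untreated KO, 231 and 240 in LPS-treated WT, and 257 and 219 in LPS-treated KO. Every LPS library lay above every untreated one, the A and B libraries of a group were close, and the untreated KO libraries were the lowest. The change averaged over genotypes was 0.39 (SE 0.13, 95% interval 0.08 to 0.71) and was not called (adjusted p = 0.0607). It passed with the library letter as a block (adjusted p = 0.0472), with median-ratio scaling (0.0171) and with quantile normalization (0.0472). With a pseudocount of 0.1 (0.0611), no filter (0.0589) or a filter at 5 RPKM (0.0662) it did not pass. Over the omissions of 1 library the change ran from 0.34 to 0.45.

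Keap1, the sensor (XLOC_022041, chromosome 9, 21034174 to 21043776, minus strand), read 18.2 and 20.6 RPKM in untreated WT, 17.9 and 19.1 in untreated KO, 15.7 and 16.7 in LPS-treated WT, and 22.1 and 14.2 in LPS-treated KO. Both WT LPS libraries were below both WT untreated ones, and the KO LPS libraries were the highest and the lowest of all 8. Its averaged change of -0.15 (SE 0.17, adjusted p = 0.513) turned to 0.14 with median-ratio scaling, 0.058 with quantile normalization and 0.00205 without KO LPS B. The ratio of Nfe2l2 to Keap1 within a library, which library scaling does not touch, was 8.36 to 10.8 untreated and 11.7 to 15.4 with LPS, so the ranges did not overlap.

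Sqstm1, which encodes p62, an autophagy receptor that binds KEAP1 and is also an NRF2 target (XLOC_003448, chromosome 11, 50012868 to 50024329, minus strand), read 375 and 674 RPKM in untreated WT, 431 and 243 in untreated KO, 701 and 863 in LPS-treated WT, and 1149 and 1490 in LPS-treated KO. The KO LPS libraries were the highest and KO untreated B the lowest. The change was 0.63 in WT (SE 0.39, adjusted p = 0.316), 2.01 in KO (SE 0.39, adjusted p = 0.0315) and 1.32 averaged (SE 0.28, adjusted p = 0.0141). In WT, leaving out untreated A gave 0.21 and leaving out untreated B gave 1.05. The averaged call was lost without WT LPS B (adjusted p = 0.0507) and without KO LPS B (0.0601).

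Slc7a11, the cystine-glutamate exchanger that brings in cystine for glutathione synthesis, had the largest change of the 10 genes. The locus (XLOC_013492, chromosome 3, 50168858 to 50247535, minus strand) read 53.6 and 200 RPKM in untreated WT, 63.8 and 37.1 in untreated KO, 358 and 875 in LPS-treated WT, and 516 and 942 in LPS-treated KO. Every LPS library lay above every untreated library, and WT untreated B stood apart from the other untreated libraries. LPS over untreated RPKM within a letter was 6.68 and 4.38 in WT and 8.09 and 25.4 in KO. The change was 2.42 in WT (SE 0.69, adjusted p = 0.0759, and 0.0293 with the library letter as a block), 3.81 in KO (SE 0.69, adjusted p = 0.0267) and 3.12 averaged (SE 0.49, adjusted p = 0.0062). In WT the change was 1.48 without untreated A, 3.36 without untreated B, 3.06 without LPS A and 1.78 without LPS B. In KO it was 4.20 without untreated A, 3.43 without untreated B, 4.25 without LPS A and 3.38 without LPS B. Slc7a11 lost its call in KO when any of these KO libraries was left out, and with no filter (adjusted p = 0.0638). Its partner subunit Slc3a2, the heavy chain of the exchanger, had the most similar profile of 7644 named loci (r = 0.997 over 8 libraries that share their treatment groups), and the ratio of Slc7a11 to Slc3a2 was 0.449 to 0.702 untreated and 0.904 to 1.40 with LPS. Next were Ube2f, a NEDD8-conjugating enzyme (r = 0.988), and Ttc39c (r = 0.985). For Nfe2l2 the closest profiles were Col18a1, a collagen (r = 0.964), Acsl5, an acyl-CoA synthetase (r = 0.947), and Tbk1, a kinase of innate immune signalling (r = 0.944).

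The glutamate-cysteine ligase subunits make the rate-limiting step of glutathione synthesis. Gclc, the catalytic subunit (XLOC_021707, chromosome 9, 77602342 to 77642292, plus strand), read 33.0 and 63.8 RPKM in untreated WT, 43.5 and 27.8 in untreated KO, 46.9 and 51.4 in LPS-treated WT, and 73.9 and 76.5 in LPS-treated KO. Both KO LPS libraries exceeded all others, and the WT LPS libraries lay between the WT untreated ones. Its change was 0.09 in WT (SE 0.34, adjusted p = 0.876), 1.09 in KO (SE 0.34, adjusted p = 0.0922) and 0.59 averaged (SE 0.24, adjusted p = 0.0969). The averaged change of Gclc passed with median-ratio scaling (0.89, adjusted p = 0.0493). Leaving out WT untreated A gave an averaged change of 0.36 (adjusted p = 0.266), and leaving out WT untreated B gave 0.82 (adjusted p = 0.0454). Gclm, the modifier subunit (XLOC_013286, chromosome 3, 121948475 to 121972902, plus strand), read 97.1 and 338 RPKM in untreated WT, 149 and 81.5 in untreated KO, 236 and 269 in LPS-treated WT, and 362 and 352 in LPS-treated KO. WT untreated B was near the KO LPS libraries, whereas the other 3 untreated libraries were below every LPS library. Its change was 0.47 in WT (SE 0.55, adjusted p = 0.59), 1.69 in KO (SE 0.55, adjusted p = 0.102) and 1.08 averaged (SE 0.39, adjusted p = 0.0713). The averaged change of Gclm was 0.63 without WT untreated A (adjusted p = 0.133), and without WT untreated B it passed (adjusted p = 0.0150), as it did without both untreated B libraries (0.0173), and the change in KO passed without WT untreated A (0.0436) or B (0.0430). The ratio of Gclm to Gclc was 2.93 to 5.29 untreated and 4.61 to 5.24 with LPS, and that of WT untreated B was the highest of all 8 libraries.

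In the thioredoxin branch, Txnrd1, the cytosolic thioredoxin reductase (XLOC_001662, chromosome 10, 82296696 to 82360469, plus strand), read 185 and 342 RPKM in untreated WT, 217 and 124 in untreated KO, 429 and 638 in LPS-treated WT, and 677 and 755 in LPS-treated KO. All 4 LPS libraries lay above all 4 untreated ones. The change was 1.06 in WT (SE 0.40, adjusted p = 0.134), 2.12 in KO (SE 0.40, adjusted p = 0.0283) and 1.59 averaged (SE 0.28, adjusted p = 0.00907). Srxn1, which repairs overoxidized peroxiredoxins (XLOC_011615, chromosome 2, 151931252 to 151937112, plus strand), read 140 and 282 RPKM in untreated WT, 179 and 77.1 in untreated KO, 253 and 316 in LPS-treated WT, and 516 and 467 in LPS-treated KO. WT untreated B lay between the WT LPS libraries, and the KO LPS libraries were well above the rest. The change was 0.51 in WT (SE 0.46, adjusted p = 0.486), 2.05 in KO (SE 0.46, adjusted p = 0.0445) and 1.28 averaged (SE 0.32, adjusted p = 0.0257). Leaving out WT untreated A gave 0.0018 for Srxn1 and 0.61 for Txnrd1 in WT, and leaving out WT untreated B gave 1.01 for Srxn1. The averaged call of Srxn1 was lost with no filter (adjusted p = 0.0514) and without WT untreated A (0.0793), WT LPS B (0.0834) or either KO LPS library (0.0654 without A and 0.0770 without B). Relative to their partners within a library, Txnrd1 stood at 0.410 to 0.733 of Txn1 untreated and 0.936 to 1.81 with LPS. Srxn1 stood at 0.0282 to 0.0369 of Prdx1 untreated and 0.0609 to 0.0705 with LPS. Neither pair of ranges overlapped. How often the ratios of other gene pairs separate in this way was not counted, here or for the other ratios given.

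**Figure D2:**
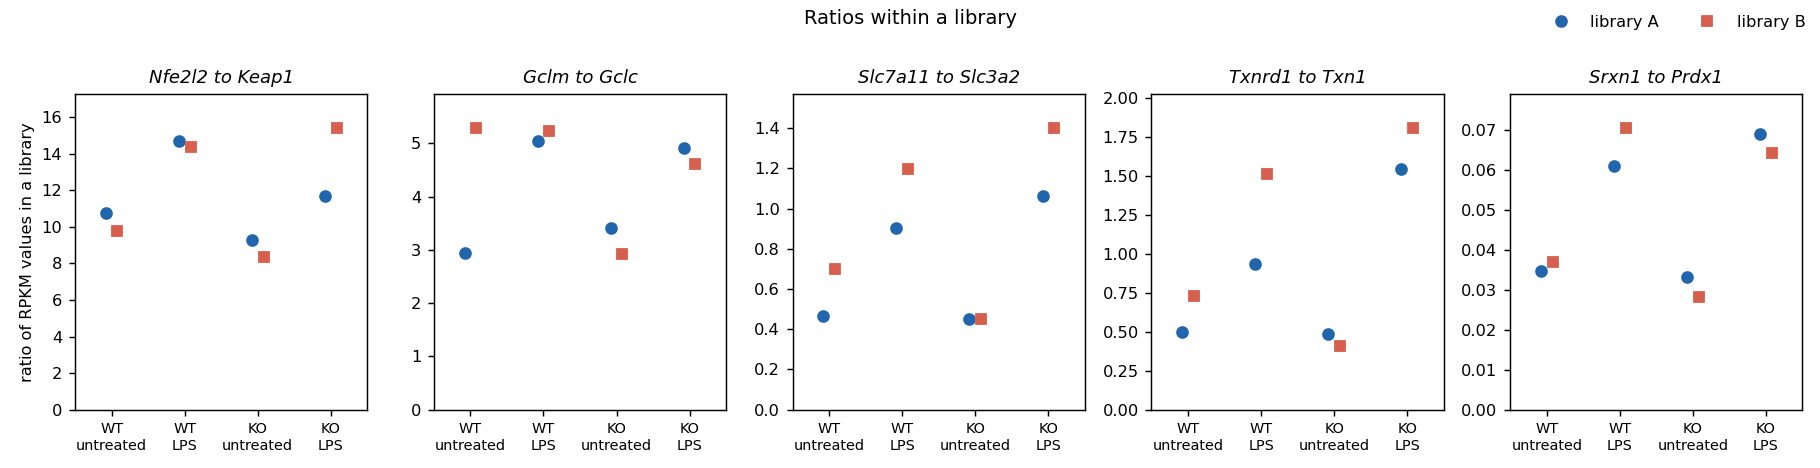
Ratio of RPKM values within each of the 8 libraries, untreated or treated with LPS, for 5 pairs of genes. The untreated and LPS ranges do not overlap for Nfe2l2 to Keap1, Slc7a11 to Slc3a2, Txnrd1 to Txn1 and Srxn1 to Prdx1, and overlap for Gclm to Gclc.

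The quinone and heme enzymes passed in 0 of the 3 LPS comparisons. Nqo1, the NAD(P)H quinone dehydrogenase (XLOC_021154, chromosome 8, 109912125 to 109927106, minus strand), read 60.0 and 140 RPKM in untreated WT, 83.7 and 31.6 in untreated KO, 47.2 and 55.7 in LPS-treated WT, and 122 and 71.2 in LPS-treated KO. Both WT LPS libraries were below both WT untreated ones, and the KO groups overlapped. The change was -0.83 in WT (SE 0.55, adjusted p = 0.344), 0.84 in KO (SE 0.55, adjusted p = 0.329) and 0.01 averaged (SE 0.39, adjusted p = 0.99). Hmox1, heme oxygenase 1 (XLOC_020433, chromosome 8, 77617490 to 77624495, plus strand), read 904 and 1554 RPKM in untreated WT, 1258 and 368 in untreated KO, 1061 and 1089 in LPS-treated WT, and 1822 and 1734 in LPS-treated KO. The WT LPS libraries lay between the WT untreated ones, and both KO LPS libraries were above all others. The change was -0.14 in WT (SE 0.55, adjusted p = 0.887), 1.38 in KO (SE 0.55, adjusted p = 0.15) and 0.62 averaged (SE 0.39, adjusted p = 0.25). The WT value of Hmox1 turned to 0.15 with median-ratio scaling, 0.00821 with quantile normalization and 0.25 without WT untreated B. Without KO untreated A, Hmox1 passed in KO (2.27, adjusted p = 0.0343) and averaged (1.06, adjusted p = 0.025), whereas without KO untreated B it was 0.50 in KO (adjusted p = 0.417) and 0.18 averaged (adjusted p = 0.58). The value of Nqo1 was -0.22 in WT without WT untreated B and 0.15 in KO without KO untreated B.

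In WT, 4 of the 10 genes (Nfe2l2, Slc7a11, Txnrd1 and Sqstm1) had both LPS libraries above both untreated ones, against 18.2% of all loci. In KO, 8 of 10 did (all but Keap1 and Nqo1), against 15.1%. Across all 8 libraries the same separation held for the 4 genes named for WT, against 9.2% of all loci. Slc7a11 and Txnrd1 passed in the averaged comparison in each of the 15 alternatives run. The count of 4 in that comparison was 2 without WT LPS B or without KO LPS B and 6 without WT untreated B, whereas the count of 4 within KO was 0 when KO untreated B or either KO LPS library was left out, or with no filter. Under these alternatives the calls over all loci in KO also fell, from 6.62% to 0.512% when KO untreated B was left out, to 0.633% and 0.179% when KO LPS A or B was, and to 1.58% with no filter. Averaged, 30.2% of all loci were called as deposited, 17.6% without WT LPS B, 10.01% without KO LPS B and 14.9% without WT untreated B. Without both untreated B libraries, an alternative chosen after seeing the data, 5 were called averaged and 0 within KO, with 9.31% and 0.48% of all loci called. Over all loci, the averaged comparison called 954 higher and 2456 lower as deposited, 1586 and 1523 with median-ratio scaling, and 1352 and 1732 with quantile normalization. Median-ratio scaling moved the median of all loci from -0.26 to -0.01. Within KO the split was 373 and 373 as deposited and 465 and 309 with median-ratio scaling.

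**Figure D3:**
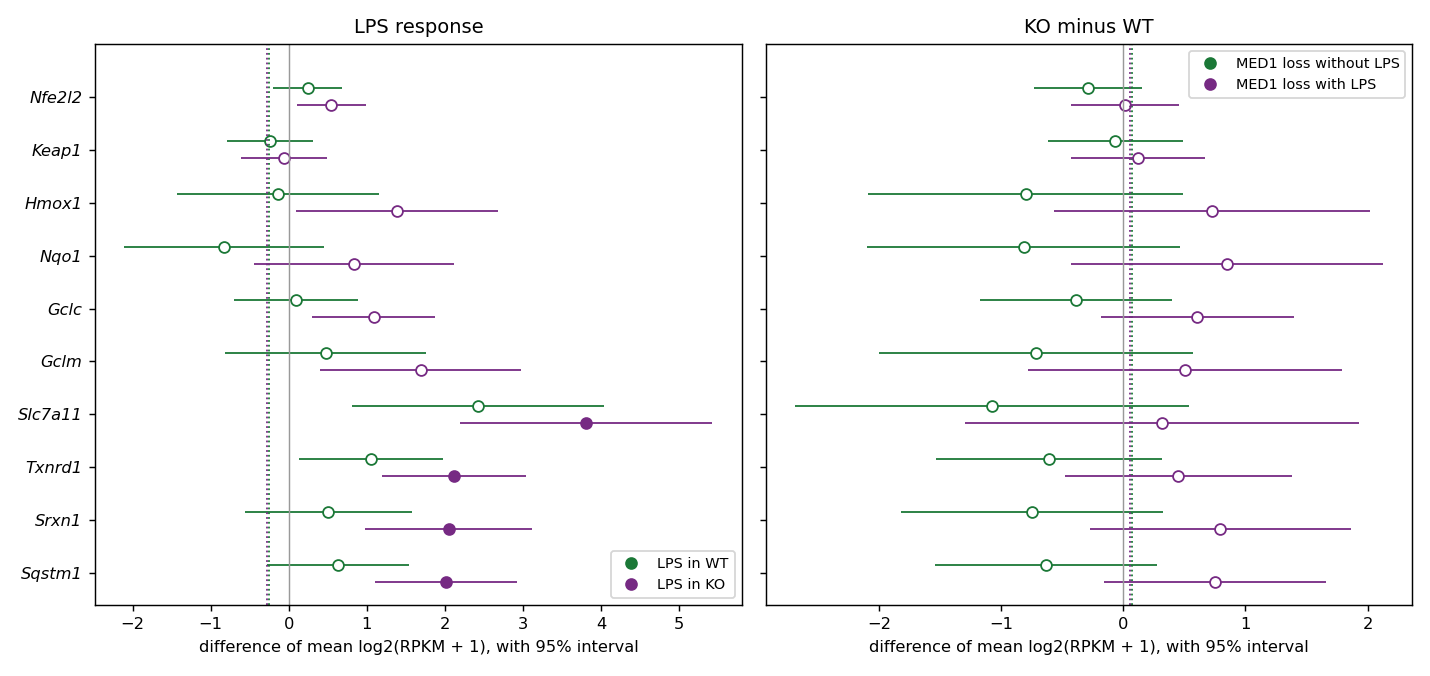
Difference of mean log2(RPKM + 1) with its 95% interval for each of the 10 genes, LPS minus untreated in WT and KO on the left and KO minus WT without and with LPS on the right. Filled points have an adjusted p under 0.05 and dotted lines are medians of all loci. The 4 filled points are Slc7a11, Txnrd1, Srxn1 and Sqstm1 in KO, and 0 points are filled for KO minus WT.

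Whether MED1 loss changed these genes was asked in each treatment. Without LPS, all 10 genes were lower in KO on average (median -0.67, from -1.08 for Slc7a11 to -0.07 for Keap1), and 0 were called, where 0.0266% of all loci were. With LPS, all 10 were higher in KO (median 0.55, from 0.01 for Nfe2l2 to 0.85 for Nqo1), and 0 were called, where 0.00887% of all loci were. Averaged over treatments 5 were higher and 5 lower (median -0.01), again with 0 called against 0.0355% of all loci. Of all loci, 64.1% were higher in KO without LPS, 58.9% with LPS and 63.8% averaged over treatments. By limma, 0 of 10 had an unadjusted p under 0.05 in each of these 3 comparisons, and the smallest was 0.0933 for Sqstm1 with LPS. The intervals were wide: for Slc7a11, KO minus WT ranged from -2.69 to 0.54 without LPS and from -1.30 to 1.93 with LPS.

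The lower KO mean without LPS was not shared by the letters. Among the A libraries all 8 target genes (the 10 without Nfe2l2 and Keap1) were higher in KO, with a median of 0.37, and among the B libraries all 8 were lower, with a median of -1.95. Over all loci these medians were 0.04 and 0.10, and 58.3% and 60.1% of loci were higher in KO. The 8 targets held 1 order among the untreated libraries, WT B highest, then KO A, then WT A, and KO B lowest. That order was found in 8 of the 10 genes and in 4.31% of all loci. It was read from these same genes, so their count was fixed in advance and the comparison is not a test. Library B exceeded library A in WT untreated by a median of 0.97 for the 8 targets (0.78 for Hmox1 as the smallest, 1.88 for Slc7a11 as the largest), and each lay outside the range from the 10th to the 90th percentile of all loci (-0.38 to 0.44). In KO untreated, B was below A by a median of -0.84 (-1.77 to -0.63), each again outside that range of all loci (-0.57 to 0.81). With LPS, B minus A had a median of 0.27 in WT (0.04 to 1.29, with 2 of 8 outside the 10th to 90th percentile range of that group, -0.86 to 0.33). In KO with LPS it ran from -0.76 to 0.87, with 4 targets higher and 4 lower in B, and 3 of 8 lay outside its range of -0.53 to 0.30. Nfe2l2 did not share this spread, with B minus A at 0.05 in WT untreated and -0.06 in KO untreated, nor did Keap1, at 0.17 and 0.09.

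**Figure D4:**
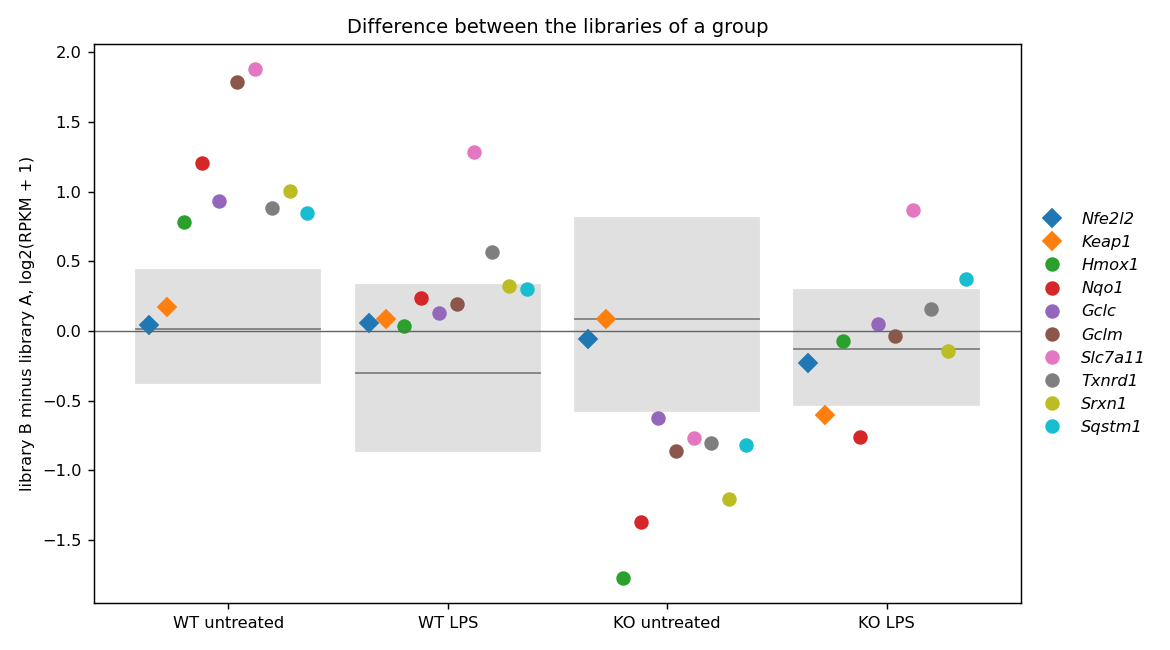
Library B minus library A in log2(RPKM + 1) for each of the 10 genes in each of the 4 groups, over the range from the 10th to the 90th percentile of all 11272 loci. The 8 target genes lie above this range in WT untreated and below it in KO untreated, while Nfe2l2 and Keap1 lie within it in both.

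WT untreated B, the library highest in these targets, was also the one with erythroid marker RNA (68.7 RPKM), and had the highest mesothelial and fibroblast marker sum (8.55 RPKM, 4 of 4 markers, against 0.542 to 7.02 in the other 7 libraries). KO untreated B, the lowest, had the highest B cell (1586 RPKM) and mast cell (162 RPKM) marker sums, against 515 to 590 for B cells and 0.197 to 70.0 for mast cells in the other untreated libraries. It also had the highest sums of large peritoneal macrophage markers (131 RPKM, 3 of 3 markers, none at 0, against 31.3 to 80.9) and of T and NK cell markers (22.3 RPKM, 4 of 4, against 2.52 to 9.59). The part of these cells in the spread was not tested. Without both untreated B libraries, the median of KO minus WT without LPS was 0.30 in place of -0.67. It was -0.19 without WT untreated B alone, -0.18 without KO untreated B alone and -1.12 without WT untreated A.

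After LPS, 7 of the 10 genes (Hmox1, Nqo1, Gclc, Gclm, Txnrd1, Srxn1 and Sqstm1) had both KO libraries above both WT libraries, against 18.7% of all loci. Hmox1 averaged 1778 ± 62.2 RPKM in KO and 1075 ± 19.8 in WT, Gclc 75.2 ± 1.88 and 49.1 ± 3.21, and Srxn1 491 ± 35.0 and 284 ± 44.7 (SD, n = 2 libraries). All 8 targets were higher in KO in both letters (median 0.69 in A and 0.47 in B, with -0.03 and 0.14 over all loci). Of all loci, 45.8% were higher in KO in A and 66% in B. With the 4 LPS libraries fitted alone, a choice made after seeing the data, 6 of 10 had an unadjusted p under 0.05 (Hmox1, Nqo1, Gclc, Gclm, Srxn1 and Sqstm1) against 5.63% of all loci. Of the 10, 0 were called in that fit, where 0.0355% of all loci were, and the smallest limma adjusted p was 0.707 for Srxn1. B cell markers were also higher in both KO LPS libraries (1332 and 918 RPKM) than in both WT LPS libraries (576 and 378), and their part in the difference was not tested.

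The test of whether the LPS response differed by genotype, the interaction, took the response in KO minus that in WT. This value was above zero for all 10 genes (median 1.30, against -0.03 over all loci) and for 46.4% of all loci. For Keap1 it reflected a smaller fall in KO (-0.06, against -0.24 in WT). Nqo1 was lower with LPS in WT and higher in KO. By limma 0 were called, where 0.0355% of all loci were. Sqstm1 (1.38, SE 0.55) and Srxn1 (1.55, SE 0.65) had an unadjusted limma p under 0.05, as did 1.63% of all loci. The values rest on the same untreated libraries as above: the median over the 8 targets was 0.36 in the A libraries and 2.42 in the B libraries, each with 8 of 8 above zero. Of all loci, 40.5% were above zero in A and 50.1% in B. Without both untreated B libraries the median of the 10 genes was 0.23, and without WT untreated B alone it was 0.57. In the A libraries Gclm differed by 0.0065 and Nqo1 by 0.87.

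In the wider antioxidant machinery, given by 6 lists, falls outnumbered rises in each list when LPS was averaged over genotypes, as they did over all loci; with median-ratio scaling the partner list had 7 rises and 6 falls. Of 20 tested genes of glutathione synthesis and use (23 listed), 4 rose (Slc3a2, Chac1, Glrx and Gsr) and 11 fell, which were the peroxidases Gpx1, Gpx3, Gpx4 and Gpx7 and the transferases Gstm1, Gstm5, Gsto1, Gstp1, Mgst1, Mgst2 and Mgst3 (8.46% rose and 21.8% fell of all loci). The list's median change was -0.87, against -0.26 over all loci. Chac1, which degrades glutathione, went from 2.04 to 2.80 RPKM untreated to 11.7 to 22.2 with LPS (2.35, SE 0.17, adjusted p = 0.000817). Slc3a2 rose by 1.98 (SE 0.36, adjusted p = 0.00984). Mgst2, a microsomal transferase, fell by 1.95 (SE 0.35, adjusted p = 0.00924), and Gpx1, the cytosolic glutathione peroxidase, fell by 1.96 (SE 0.47, adjusted p = 0.0216). The call of Gpx1 was lost without WT untreated A (adjusted p = 0.0702), KO untreated A (0.0527) or KO LPS B (0.0766).

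Of 16 thioredoxin and peroxiredoxin genes, 2 rose (Prdx5 and Txnl1) and 5 fell, with a median of -0.47, against 8.46% and 21.8% of all loci and their median of -0.26. Prdx5, a peroxiredoxin of mitochondria and peroxisomes, rose by 1.85 (SE 0.34, adjusted p = 0.0104), from 431 to 1177 RPKM untreated to 1480 to 3186 with LPS. Msrb1, a methionine sulfoxide reductase, fell by 2.51 (SE 0.32, adjusted p = 0.00334), and Prdx2 fell by 1.28 (SE 0.26, adjusted p = 0.0129, and 0.0506 without KO LPS B). Glrx2, mitochondrial glutaredoxin, fell by 0.83 (SE 0.21, adjusted p = 0.0262) but lost its call in 8 of 15 alternatives, among them those without WT untreated A (adjusted p = 0.0747), WT untreated B (0.0872), WT LPS B (0.0505), KO untreated A (0.0579) or KO LPS B (0.104).

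Of 12 genes of NADPH supply, which feeds both reductase systems, 0 rose and 5 fell (8.46% rose and 21.8% fell of all loci), with a median of -0.53. Idh1, cytosolic isocitrate dehydrogenase, went from 175 to 243 RPKM untreated to 23.0 to 43.3 with LPS (-2.68, SE 0.24, adjusted p = 0.00127). Idh2, its mitochondrial counterpart, fell by 2.03 (SE 0.36, adjusted p = 0.00966, and 0.0667 without both untreated B libraries). RNA of the transhydrogenase gene Nnt fell by 1.07 averaged (SE 0.20, adjusted p = 0.0113), and lost its call without KO LPS B. Whether this RNA encodes a working enzyme in these mice was not tested. Pgls, of the pentose phosphate pathway, fell by 0.72 (SE 0.16, adjusted p = 0.0186) and lost its call without WT untreated A (adjusted p = 0.0543), WT untreated B (0.0698) or KO LPS B (0.0803).

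Of 12 heme and iron genes, 1 rose and 3 fell, with a median of -0.51, and these counts are near the shares of all loci (8.46% and 21.8%). Slc11a2, an iron importer, rose by 0.82 (adjusted p = 0.018), and Hebp1, a heme-binding protein, fell by 1.83 (adjusted p = 0.018). Blvra, biliverdin reductase, which acts after heme oxygenase, fell by 1.20 (adjusted p = 0.0252), and Hmox2, the constitutive heme oxygenase, fell by 0.81 (adjusted p = 0.0128). Each of these 4 calls was lost without KO LPS B, at an adjusted p of 0.0774 for Slc11a2, 0.0639 for Hebp1, 0.0937 for Blvra and 0.0529 for Hmox2, and without WT untreated A, at 0.0659, 0.0606, 0.0766 and 0.0534 in the same order. Slc11a2 and Blvra were also lost without WT untreated B (0.0545 and 0.0648), and Blvra without WT LPS B (0.0679) or KO untreated A (0.0581). Without both untreated B libraries 0 of the 12 were called.

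Of 20 tested genes of other detoxification and transport (23 listed), 1 rose and 5 fell, with a median of -0.20, again near all loci (8.46%, 21.8% and -0.26). This list's median was -0.67 within WT and 0.23 within KO, against -0.25 and -0.28 over all loci. In the interaction, 17 of 20 had a positive value, as did 46.4% of all loci (median 0.82, against -0.03 over all loci), and 0 were called. Averaged over genotypes, the exporter Abcc1 rose by 1.50 (SE 0.29, adjusted p = 0.0113). It went from 49.9 to 166 RPKM untreated to 212 to 264 with LPS. Its relative Abcc3 fell by 2.62 (SE 0.26, adjusted p = 0.00179), from 10.4 to 13.0 RPKM to 0.493 to 1.87. Nqo2, the second quinone reductase, fell by 1.89 (SE 0.24, adjusted p = 0.00334), and Ephx1, microsomal epoxide hydrolase, fell by 1.72 (SE 0.31, adjusted p = 0.0099). Of 28 tested partners and regulators of NRF2 (30 listed), 5 rose and 6 fell (8.46% rose and 21.8% fell of all loci), with a median of -0.11. Maff, a small MAF partner, rose by 3.35 (SE 0.37, adjusted p = 0.00221), from 1.59 to 5.64 RPKM to 22.4 to 78.5. Sesn2, a stress-induced sestrin, rose by 1.54 (SE 0.16, adjusted p = 0.00188), while Sesn1 fell by 1.89 (SE 0.30, adjusted p = 0.00653).

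**Figure D5:**
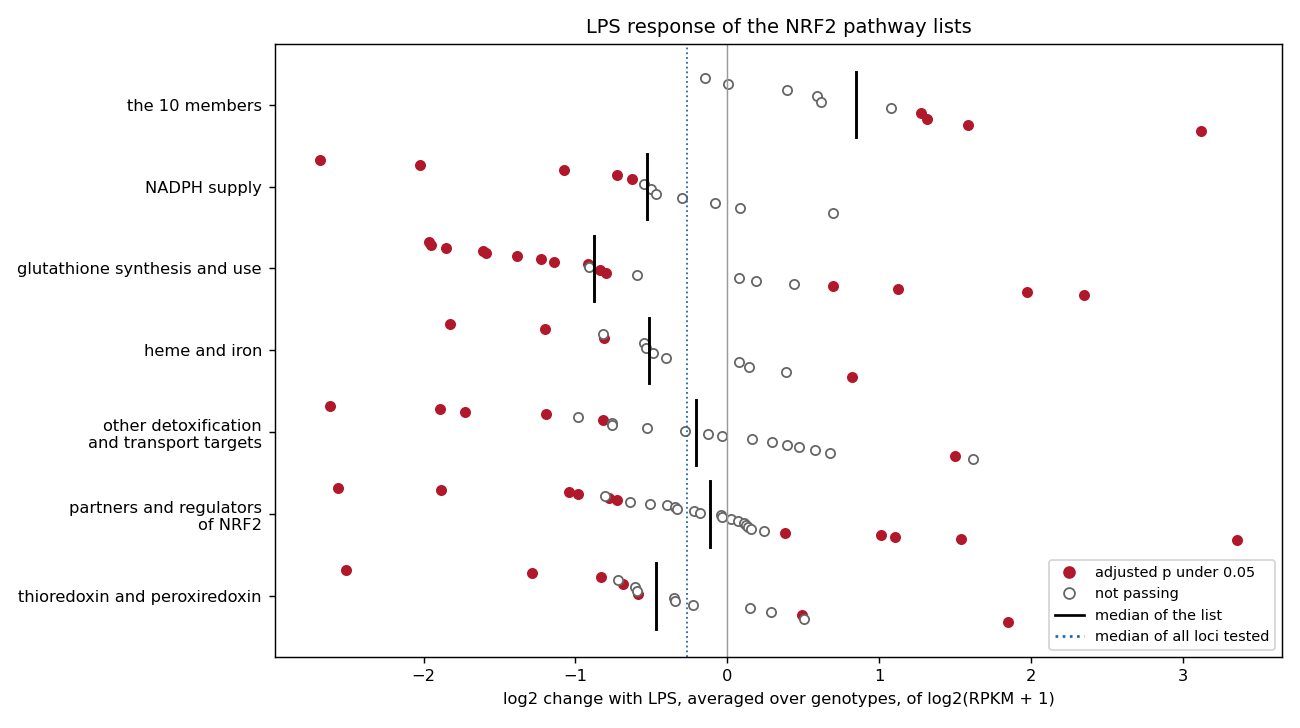
Change with LPS averaged over genotypes, in log2(RPKM + 1), of each tested gene of the 10 NRF2 genes and of the 6 lists, with filled points for adjusted p under 0.05, black bars at list medians and a dotted line at the median of all loci. The glutathione list has 4 filled points above zero and 11 below, and NADPH supply has 0 above and 5 below.

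The medians of the detoxification and the partner lists changed sign with median-ratio scaling, to 0.09 and 0.15. Those of the other 4 lists stayed below zero, at -0.62 for glutathione, -0.22 for thioredoxin, -0.23 for NADPH supply and -0.24 for heme and iron. Without both untreated B libraries, 3 rose and 4 fell in the glutathione list, 1 and 1 in the thioredoxin list, 0 and 1 in NADPH supply, 1 and 4 in detoxification, and 4 and 3 among partners. Over all loci, 4.85% rose and 4.46% fell under this alternative. In the 3 comparisons of genotype and in the interaction, limma called 0 of the 108 tested genes of the 6 lists, of which 1 without LPS, 6 with LPS, 2 averaged over treatments and 3 in the interaction had an unadjusted p under 0.05. The same held for 0.834%, 4.42%, 4.19% and 1.63% of all loci, in that order. Neutrophil markers (3 of 4 in the table, with S100a9 at 0 in 5 libraries) summed to 40.1 to 64.3 RPKM untreated and 69.9 to 121 with LPS. Most of each sum was S100a8 (39.8 to 60.6 RPKM untreated and 69.4 to 121 with LPS). Cxcr2 was at 0.247 to 0.767 RPKM throughout, and S100a9 was highest in KO untreated B (5.63 RPKM). The part of neutrophils in the LPS results was not tested.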

How the data were processed

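RNA of 8 libraries was measured by sequencing. Per the submitters' processing notes, bcl2fastq, TopHat2 2.0.14, Cufflinks 2.2.1 and the mm9 genome were used. The authors deposited RPKM values in 1 table of 24192 lines, of which 457 repeat a locus under another symbol, leaving 23735 loci. The sources used here give no annotation, strandedness or counts of reads. Depth was therefore read from the steps of low values. In 91.9% of 3230 loci with low values, the values, set to a common depth, were near whole multiples of a step (tolerance 0.1 read plus 0.02 per read). The step came from the locus's own smallest value above 0, taken as a small whole number of reads. How often loci would pass this by chance was not counted. The scale of the deepest library was set by 594 genes with 1 transcript in the mm9 gene annotation (quartiles 13.1 and 14.8 M). The same annotation gave gene positions.

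Loci that reached 1 RPKM in 2 or more libraries were fitted as log2(RPKM + 1) in limma 3.58.1 (R 4.3.3), with 1 mean per group, all 8 libraries and variances moderated with a trend on expression. Tests were two-sided, adjusted by Benjamini and Hochberg over 11272 loci and called at an adjusted p under 0.05, and every adjusted p in the text comes from this method. The pseudocount understates changes of low genes. The 7 contrasts were LPS in WT, in KO and averaged, MED1 loss without LPS, with LPS and averaged, and the interaction. The scripts were tested on simulated data. Figures and summaries used Python 3.11.15 with matplotlib 3.10.9, pandas 2.3.3 and numpy 2.4.6.

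The 10 genes, the 6 lists and the tests were chosen with earlier results of these data known. All 10 genes are given in full. From each list the text gives statistics for up to 4 called genes with the largest averaged change, and for Nfe2l2 and the most changed gene the 3 most correlated named loci with a mean of at least 5 RPKM; 1 gene that the rule took is not reported here. Alternatives were a pseudocount of 0.1, no filter, a filter at 5 RPKM, median-ratio scaling, quantile normalization, a block for the library letter, and leaving out each library. Those without both untreated B libraries, with the 4 LPS libraries alone and with the second form of the promoter core were added after seeing the data. The order of the untreated libraries was also chosen after seeing the data. The main fit held no term for the library letter. Deviations from group means correlated positively by letter in 6 of 6 pairs of groups (r from 0.20 to 0.41 across loci). On that ground, libraries of the same letter were paired across groups in the values given by letter and in the block alternative. The 8 targets did not follow this in the untreated groups, where B minus A had a median of 0.97 in WT and -0.84 in KO. Their values by letter therefore rest on a pairing that these genes did not show. The labels do not say what the letters mean.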

Additional observations from a re-analysis of the deposited data

Results flagged for a closer look

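Nqo1 stood out because its value was lower with LPS in both WT letter pairs and higher in both KO letter pairs. Its RPKM went from 60.0 to 47.2 (A) and from 140 to 55.7 (B) in WT, and from 83.7 to 122 (A) and from 31.6 to 71.2 (B) in KO. The response in KO minus that in WT was 1.67 on the log2 scale (SE 0.77, unadjusted p = 0.0662, limma adjusted p = 1). The difference did not pass its test, and neither did the change within WT (-0.83, limma adjusted p = 0.344) or within KO (0.84, limma adjusted p = 0.329), where untreated A lay above LPS B. Without KO untreated B the KO change was 0.15, and without WT untreated B the WT change was -0.22.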

How the results depend on the processing

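Each of the 7 counts of called genes was recomputed under 15 alternatives. The 4 counts for MED1 loss and the interaction were 0 throughout. For LPS in WT the count was 1 with the replicate block (Slc7a11, adjusted p = 0.0293) and 0 to 1 when each library was left out. For LPS in KO it was 4, 0 with no filter, 0 without both untreated B libraries, and 0 to 5 when each library was left out. For LPS averaged over genotypes it was 4, and 2 to 6 when each library was left out. With all 8 libraries, the averaged count was 6 with median-ratio scaling (with Nfe2l2 and Gclc), 5 with quantile normalization, 5 with the replicate block and 3 with no filter. In that order, 27.6%, 27.4%, 36.4% and 16.4% of all loci were called. Other than Slc7a11 in WT and Nfe2l2 averaged (adjusted p = 0.0472), the replicate block changed no call of the 10 genes. Some values of genes that did not pass turned direction. Those of Keap1 did so with median-ratio scaling (0.0393 in WT, 0.24 in KO and 0.14 averaged) and quantile normalization (0.165 in KO and 0.0577 averaged), and without KO LPS B; over the omissions of 1 library they ran from -0.36 to 0.25 in KO and from -0.30 to 0.00205 averaged. Hmox1 in WT turned to 0.15 with median-ratio scaling, to 0.00821 with quantile normalization and to 0.25 without both untreated B libraries, and ran from -0.53 to 0.25 over the omissions. Also over the omissions, Gclc in WT ran from -0.37 to 0.56 and Gclm in WT from -0.42 to 1.37, both turning without WT untreated A. Nqo1 averaged ran from -0.34 to 0.35, turning when WT untreated A, KO untreated B, KO LPS A or WT LPS B was left out, and was -0.0353 without both untreated B libraries. The cause of these changes was not tested. With 2 libraries a group, a lone library left after an omission is assumed to vary like the other groups. Depth was estimated from the values, so no counting error is given for single values.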
